A study of Mus musculus with 8 samples.

Results

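The 10 genes described here make, bind or degrade the hyaluronan- and versican-rich matrix known as cardiac jelly. They were chosen by name and matched by symbol to 10 of the 53465 mouse gene identifiers of the deposited table, and all 10 had enough counts to be tested. Their levels were compared between 4 ventricle samples of embryos carrying a *Rosa26Nrg-1* transgene and a Cre driver (*Nrg1GOF*) and 4 ventricle samples of control embryos labelled WT, all at embryonic day 15.5 and measured by poly(A) RNA-seq. The series title names the driver as *Nkx2.5-Cre* and the genotype labels spell it *Nkx5.5-Cre*. *Nkx2.5-Cre* acts in the cardiac *Nkx2.5* lineage, which includes the myocardium, where the transgene then adds neuregulin-1, a growth factor that signals through ErbB receptors. The labels give 1 ventricle per replicate, and strain, sex, litter and whether WT embryos carried Cre or the transgene alone are not given in the sources used here.

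Cardiac jelly is the swollen extracellular matrix between endocardium and myocardium of the early heart. Hyaluronan, a long unsulphated sugar polymer, is extruded through the cell membrane by hyaluronan synthases and is held in large aggregates by the proteoglycan versican and by link protein. Trabeculae form as myocardium protrudes into this matrix, and later the matrix is cleared from the trabecular wall by hyaluronidases and by secreted Adamts metalloproteases that cut versican, while it persists in the cushions that become valves. Neuregulin-1 from the endocardium is required for trabeculation. The comparison sets the makers of the matrix against the enzymes that degrade it when neuregulin-1 is in excess.

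*Nrg1* itself was at 61.8 ± 1.90 CPM (counts scaled to library size) in *Nrg1GOF* and 4.03 ± 0.652 CPM in WT (SD, n = 4 each), which is 3.94 on the log2 scale (edgeR quasi-likelihood adjusted p = 8.26e-08), with transgene and endogenous transcripts counted together. Library totals ranged from 8038641 (*Nrg1GOF* library 4) to 26786039 counts (WT library 1). WT libraries 1 and 2 resembled each other more closely than they resembled WT libraries 3 and 4, with Pearson correlations of log2 CPM across genes of 0.989 and 0.991 inside these pairs against 0.980 between them, and several of the 10 genes had unlike levels in the pairs. Mitochondrially encoded genes held 4.30% and 4.48% of counts in WT libraries 1 and 2, 5.78% in each of WT libraries 3 and 4, and 3.10% to 4.35% in *Nrg1GOF*, and the part of this difference in the results was not tested. Ventricular myocardium markers were abundant in every library, with a summed level of 32595 CPM or more over 8 genes. Atrial markers summed to 1001 to 1121 CPM in WT and 1605 to 1776 CPM in *Nrg1GOF*, mostly *Myl4* (839 to 885 CPM in WT). *Myl7* was less even, at 176, 156, 88.9 and 106 CPM in WT libraries 1 to 4. It was at 310, 341, 377 and 212 CPM in *Nrg1GOF* libraries 1 to 4. Within each group *Myl7* and *Sln* ranked the libraries as *Hapln1* did (below), and the other atrial markers did not. The part of atrial tissue in the results was not tested. In whole ventricle a change in the number of cells of a type cannot be told apart from a change in transcript per cell.

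Of the 10 genes, 7 were called higher in *Nrg1GOF* at an adjusted p under 0.05, namely *Has2*, *Vcan*, *Hapln1*, *Cd44*, *Hyal2*, *Adamts1* and *Adamts5*. Over all 15580 tested genes, 28.7% were called and 15.9% were called higher. The edgeR test called 0 of the 10 lower, as did DESeq2 and limma-voom, and 0 were lower at an unadjusted p under 0.05. In 6 of the 10 every *Nrg1GOF* library lay above every WT library, against 16.6% of all tested genes (30.7% in either direction). The median log2 fold change of the 10 genes was 0.40, and that of all tested genes was -0.012. *Has2*, *Vcan*, *Hapln1*, *Cd44* and *Adamts1* were called under each of the 23 alternatives tried, whereas *Hyal2* was called in 9 of them and *Adamts5* in 14. The 3 genes that build the matrix had the highest fold changes of the 10, from 1.91-fold to 3.85-fold, and none of the 5 proteases exceeded 1.45-fold.

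**Figure D1:**
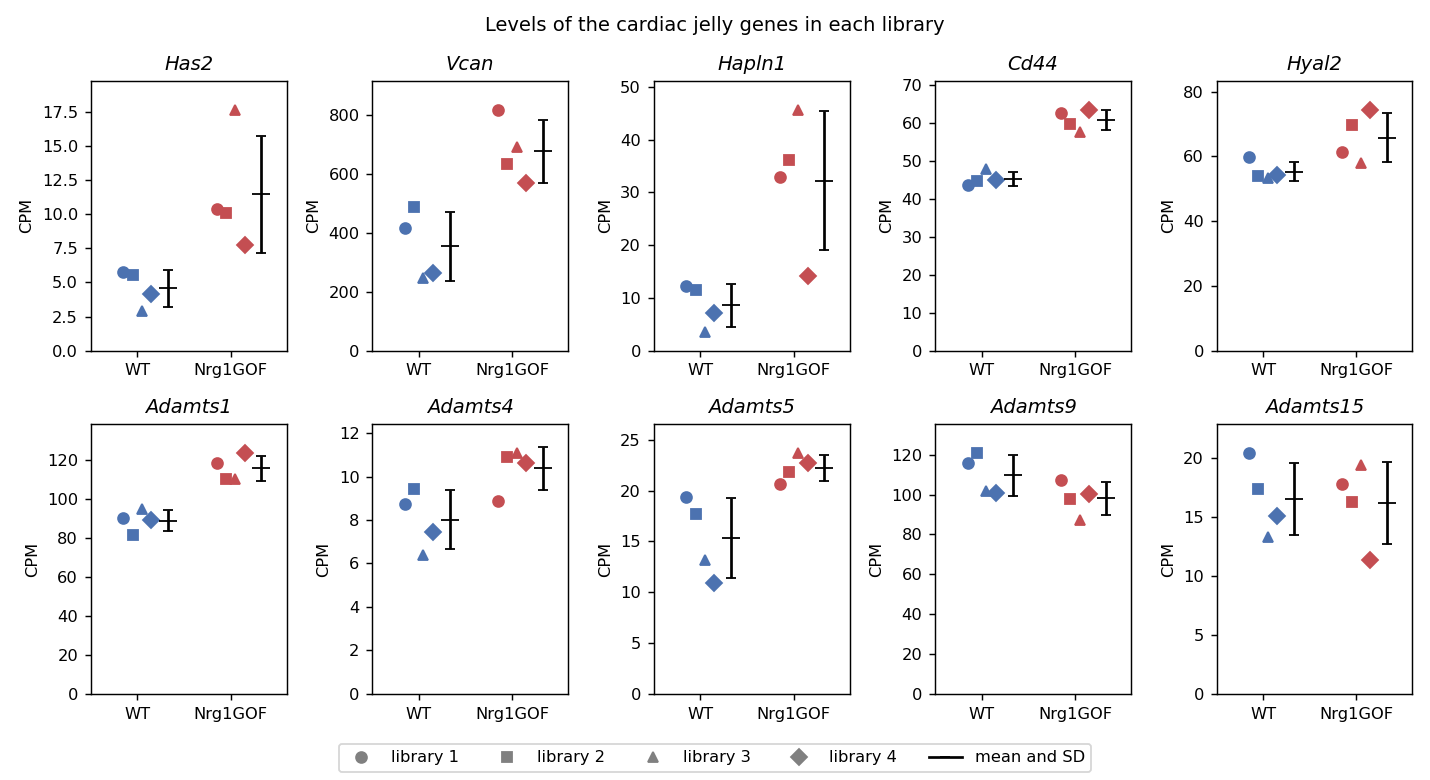
Level of each gene in CPM (linear axis from 0) in the 4 WT and 4 *Nrg1GOF* libraries, with 1 marker shape per replicate number and the mean with its SD beside the points. In *Has2*, *Vcan*, *Hapln1*, *Cd44*, *Adamts1* and *Adamts5* all 4 *Nrg1GOF* points sit above all 4 WT points, while in the other 4 genes the groups overlap.

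*Has2* (ENSMUSG00000022367, GRCm38 chromosome 15, 56665627 to 56694539) encodes the hyaluronan synthase on which the embryonic heart depends for cardiac jelly. Its level was 10.4, 10.05, 17.6 and 7.75 CPM in the *Nrg1GOF* libraries (1 to 4 in order) and 5.77, 5.51, 2.87 and 4.14 CPM in the WT libraries (same order). Every *Nrg1GOF* value was above every WT value, and *Nrg1GOF* library 3 was the highest of the 8. The groups were at 11.5 ± 4.28 and 4.57 ± 1.34 CPM (SD, n = 4 each), a 2.55-fold difference and a log2 fold change of 1.35 (SE 0.28, 95% interval 0.72 to 1.97, adjusted p = 0.00566). Counts were low, from 62 in *Nrg1GOF* library 4 to 412 in library 3. An antisense transcript, *Has2os*, shares 182 exonic bases with *Has2*, but held at most 6 counts in any library.

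*Vcan* (ENSMUSG00000021614, chromosome 13, 89655312 to 89742509) encodes versican, the large chondroitin sulphate proteoglycan that binds hyaluronan. It had the highest mean CPM of the 10 genes in both groups and was at 818, 633, 691 and 569 CPM in the *Nrg1GOF* libraries (1 to 4 in order) and 419, 488, 247 and 264 CPM in the WT libraries (same order). The lowest *Nrg1GOF* value was above the highest WT value, and WT libraries 1 and 2 were well above WT libraries 3 and 4. The groups were at 678 ± 106 and 355 ± 118 CPM (SD, n = 4 each), a 1.91-fold difference and a log2 fold change of 0.94 (SE 0.21, 95% interval 0.46 to 1.41, adjusted p = 0.00921). The gene table does not separate the versican splice forms, which differ in whether they carry the sugar-bearing stretches.

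*Hapln1* (ENSMUSG00000021613, chromosome 13, 89539796 to 89611652) encodes the link protein that locks versican onto hyaluronan, and lies 43.7 kb from *Vcan*, on the opposite strand with no protein-coding gene between them. It was at 32.9, 36.1, 45.6 and 14.3 CPM in the *Nrg1GOF* libraries (1 to 4 in order) and 12.2, 11.5, 3.52 and 7.09 CPM in the WT libraries (same order). Library 4 of *Nrg1GOF* was well below the other 3 and only slightly above WT library 1, so the groups were separated by a narrow gap. The groups were at 32.2 ± 13.1 and 8.58 ± 4.06 CPM (SD, n = 4 each), a 3.85-fold difference and a log2 fold change of 1.94 (SE 0.40, 95% interval 1.06 to 2.83, adjusted p = 0.00515). This was the highest fold change of the 10 genes, and 99.3% of all tested genes had an absolute log2 fold change no greater.

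*Cd44* (ENSMUSG00000005087, chromosome 2, 102811141 to 102901665) encodes a cell surface receptor for hyaluronan. Its levels were tightly grouped, at 62.6, 59.9, 57.6 and 63.5 CPM in the *Nrg1GOF* libraries (1 to 4 in order) and 43.6, 44.8, 47.9 and 45.2 CPM in the WT libraries (same order). The groups did not overlap, and WT libraries 1 and 2 were slightly below WT libraries 3 and 4. With 60.9 ± 2.68 against 45.4 ± 1.83 CPM (SD, n = 4 each), the difference was 1.34-fold, a log2 fold change of 0.42 (SE 0.053, 95% interval 0.30 to 0.54, adjusted p = 0.000380), the lowest adjusted p of the 10 genes.

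*Hyal2* (ENSMUSG00000010047, chromosome 9, 107567945 to 107572779) encodes a membrane-anchored hyaluronidase that cuts long hyaluronan chains. It was at 61.4, 69.7, 57.9 and 74.4 CPM in the *Nrg1GOF* libraries (1 to 4 in order) and 59.7, 53.9, 53.4 and 54.2 CPM in the WT libraries (same order). The groups overlapped, since *Nrg1GOF* library 3 was below WT library 1. The log2 fold change of 0.25 (SE 0.08, 95% interval 0.06 to 0.43) only just passed the threshold (adjusted p = 0.0474), and 14 of 23 alternatives left it uncalled (adjusted p from 0.0474, at a threshold of 0.01, to 0.225). *Hyal2* lost its call without *Nrg1GOF* library 1, 2 or 4 (adjusted p = 0.0515, 0.135 and 0.0873) and without WT library 2, 3 or 4 (adjusted p = 0.0985, 0.113 and 0.108).

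**Figure D2:**
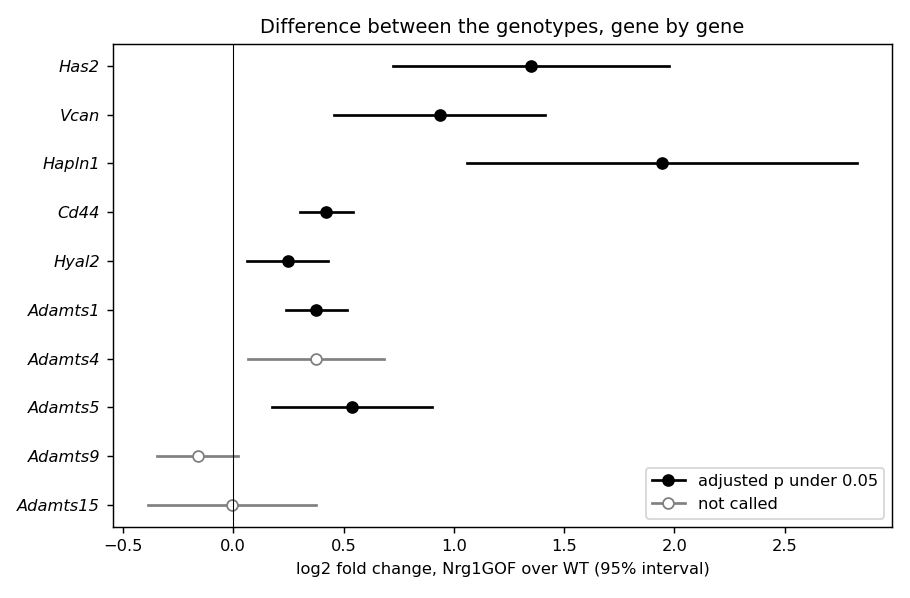
Log2 fold change of *Nrg1GOF* over WT for each gene with its 95% interval, filled points marking an adjusted p under 0.05. *Hapln1*, *Has2* and *Vcan* lie furthest to the right with the widest intervals, *Cd44* and *Adamts1* are closer to 0 with narrow intervals, and *Adamts9* and *Adamts15* lie at or just below 0.

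The 5 proteases belong to the Adamts family of secreted zinc metalloproteases that can cleave versican or aggrecan. *Adamts1* (ENSMUSG00000022893, chromosome 16, 85793827 to 85803113), the enzyme linked to the end of trabecular growth, was at 118, 110.2, 110.2 and 123 CPM in the *Nrg1GOF* libraries (1 to 4 in order) and 90.2, 81.6, 94.6 and 88.9 CPM in the WT libraries (same order). The groups did not overlap, and each was narrow. *Adamts1* was 1.30-fold higher, with 116 ± 6.48 against 88.8 ± 5.43 CPM (SD, n = 4 each) and a log2 fold change of 0.38 (SE 0.06, 95% interval 0.24 to 0.52, adjusted p = 0.00169).

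*Adamts5* (ENSMUSG00000022894, chromosome 16, 85856173 to 85901828), a major aggrecan- and versican-cleaving enzyme also known for valve maturation, lies 53.1 kb from *Adamts1* on the same strand. It was at 20.6, 21.8, 23.7 and 22.8 CPM in the *Nrg1GOF* libraries (1 to 4 in order) and 19.4, 17.7, 13.2 and 10.9 CPM in the WT libraries (same order). The groups did not overlap, but WT libraries 1 and 2 were close to *Nrg1GOF* library 1. The log2 fold change was 0.54 (SE 0.16, 95% interval 0.17 to 0.90, adjusted p = 0.0332). *Adamts5* lost its call when any of the 4 *Nrg1GOF* libraries was left out (adjusted p = 0.0534, 0.0749, 0.0721 and 0.0631 for libraries 1 to 4) and without WT library 3 or 4 (adjusted p = 0.0869 and 0.0555).

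*Adamts4* (ENSMUSG00000006403, chromosome 1, 171250421 to 171260637), another aggrecan-cleaving enzyme, was at 8.89, 10.9, 11.1 and 10.6 CPM in the *Nrg1GOF* libraries (1 to 4 in order) and 8.75, 9.44, 6.39 and 7.46 CPM in the WT libraries (same order). *Nrg1GOF* library 1 fell within the WT range. The log2 fold change of 0.37 was close to that of *Adamts1* but less precise (SE 0.14, 95% interval 0.06 to 0.68), and *Adamts4* was not called (adjusted p = 0.0705). It was called without WT library 2, at a log2 fold change of 0.46 (adjusted p = 0.0416).

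*Adamts9* (ENSMUSG00000030022, chromosome 6, 92772699 to 92943492), a versican-cleaving protease needed for normal heart and valve development, was at 107, 97.9, 87.2 and 100.4 CPM in the *Nrg1GOF* libraries (1 to 4 in order) and 116, 121, 102 and 101 CPM in the WT libraries (same order). *Nrg1GOF* library 1 exceeded WT libraries 3 and 4, so the groups overlapped. Its log2 fold change was -0.16 (SE 0.08, 95% interval -0.35 to 0.023, adjusted p = 0.179). On the opposite strand, *A730049H05Rik* shares 1381 exonic bases with *Adamts9* and *Gm15737* shares 424, and *A730049H05Rik* held 96 counts or fewer in every library against 803 or more for *Adamts9*. *Adamts15* (ENSMUSG00000033453, chromosome 9, 30899155 to 30922452), a further member of the versican-cleaving group, was at 17.8, 16.2, 19.4 and 11.4 CPM in the *Nrg1GOF* libraries (1 to 4 in order) and 20.4, 17.3, 13.3 and 15.04 CPM in the WT libraries (same order). The groups overlapped, although *Nrg1GOF* library 4 was the lowest and WT library 1 the highest of the 8. The log2 fold change was -0.0060, with an SE of 0.17, an adjusted p of 0.985 and a 95% interval of -0.39 to 0.37.

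The promoter windows of 4 of the genes are shown because they allow the start sites of *Vcan*, *Cd44* and *Adamts1*, which were higher under every alternative, to be read beside that of *Adamts9*, which was not called. RefSeq windows on GRCm38.p6 were matched for 6 of the 10 genes, and those of *Hapln1* and *Hyal2* are not shown because they run through annotated exons. *Has2*, *Adamts4*, *Adamts5* and *Adamts15* had no entry. A short stretch after the start was found in an annotated transcript of the gene for *Vcan*, *Cd44* and *Adamts1*, but not for *Adamts9*. The *Adamts9* window reaches down to 92943535, whereas the annotated gene ends at 92943492. Its start was thus not matched to a transcript, and its motif distances refer to the RefSeq start. Each line gives the 250 bases before the start in the direction of transcription, at chr13:89742513-89742762 for *Vcan*, chr2:102901666-102901915 for *Cd44*, chr16:85803114-85803363 for *Adamts1* and chr6:92943535-92943784 for *Adamts9*, all on the minus strand. Capitals mark matches to any of 6 short motifs on either strand, namely the GC box (GGGCGG), the GATA motif (AGATAA), the AP-1 motif (TGANTCA), the TEAD motif (GGAATG), the ETS motif (CCGGAAG) and, for the box named after its first letters, TATAAA.
Vcan: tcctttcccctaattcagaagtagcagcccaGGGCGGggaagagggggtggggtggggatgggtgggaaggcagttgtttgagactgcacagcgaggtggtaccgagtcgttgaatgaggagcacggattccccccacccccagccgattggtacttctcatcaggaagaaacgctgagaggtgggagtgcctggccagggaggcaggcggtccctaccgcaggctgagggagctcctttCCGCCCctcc
Cd44: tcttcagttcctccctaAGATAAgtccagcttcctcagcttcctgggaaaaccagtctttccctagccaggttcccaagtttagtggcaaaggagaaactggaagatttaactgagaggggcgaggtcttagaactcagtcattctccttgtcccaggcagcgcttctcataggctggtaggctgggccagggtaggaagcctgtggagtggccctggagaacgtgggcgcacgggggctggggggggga
Adamts1: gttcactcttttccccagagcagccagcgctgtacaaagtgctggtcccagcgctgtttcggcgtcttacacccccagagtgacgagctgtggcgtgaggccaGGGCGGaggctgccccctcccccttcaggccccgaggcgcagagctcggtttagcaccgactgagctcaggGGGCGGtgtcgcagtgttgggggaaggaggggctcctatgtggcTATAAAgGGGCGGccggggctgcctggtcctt
Adamts9: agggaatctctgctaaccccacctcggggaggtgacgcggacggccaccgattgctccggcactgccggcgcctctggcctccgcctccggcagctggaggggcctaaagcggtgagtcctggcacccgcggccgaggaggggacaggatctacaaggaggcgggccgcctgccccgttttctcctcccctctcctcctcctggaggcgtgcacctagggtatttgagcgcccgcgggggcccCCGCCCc

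The *Adamts1* window held a TATA box that begins 32 bases before the start, and 3 GC boxes that begin 147, 76 and 25 bases before it, none of which overlaps it. The *Vcan* window held GC boxes at 219 and 10 bases and that of *Adamts9* held one at 7 bases before the start, while the *Cd44* window held only a GATA match at 233 bases. Among 32851 mouse windows of the same length, a TATA box was found in 12.4%, a GC box in 32.7% and a GATA match in 9.99%. The other motifs were found in 6.75% (AP-1), 12.6% (TEAD) and 6.91% (ETS) of all windows and in none of the 4 shown, which says only that these letters are not in these 250 bases.

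To compare levels between genes, CPM was divided by the length of the merged exons in kilobases. On this scale, *Vcan* had the highest mean in WT ventricles (24.5 ± 8.15 CPM per kb), followed by *Hyal2* (16.8 ± 0.895) and *Adamts1* (16.8 ± 1.02), which did not differ beyond their spread (SD, n = 4 each). The gap of *Vcan* to both was within its own SD, and in WT library 3 *Adamts1* (17.8) was above *Vcan* (17.1). *Adamts9* (7.29 ± 0.677) and *Cd44* (6.70 ± 0.270) came next and were likewise within their spread, and *Adamts4*, *Adamts15*, *Hapln1*, *Adamts5* and *Has2* followed at 1.67, 1.59, 1.45, 1.42 and 1.08 CPM per kb. In *Nrg1GOF*, *Vcan* rose to 46.9 ± 7.34 CPM per kb, and the means of *Hapln1* (5.46 ± 2.23) and *Has2* (2.70 ± 1.01) were above those of *Adamts4* (2.16), *Adamts5* (2.06) and *Adamts15* (1.56). The order was not the same in every library, since in *Nrg1GOF* library 4 *Has2* was at 1.83 CPM per kb, below *Adamts4* at 2.21 and *Adamts5* at 2.11. *Adamts9* has long merged exons, and by its longest transcript its WT level would be 13.7 CPM per kb, still below *Adamts1* at 18.2, while *Adamts15* at 2.79 would pass *Adamts4* at 1.82. On the same length in *Nrg1GOF*, *Adamts15* would be at 2.73 CPM per kb, slightly above *Has2* at 2.70.

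The summed level of *Vcan*, *Hapln1* and *Has2* was 64.6, 52.3, 59.7 and 43.6 CPM per kb in *Nrg1GOF* libraries 1 to 4 and 32.4, 37.03, 18.4 and 20.4 in WT libraries 1 to 4. The summed level of the 5 proteases was 34.9, 33.1, 33.0 and 35.4 CPM per kb in *Nrg1GOF* and 30.3, 28.7, 28.4 and 27.5 in WT. Both sums were higher in all 4 *Nrg1GOF* libraries, and the matrix sum moved much further than the protease sum. *Vcan* alone amounted to 1.62, 1.32, 1.45 and 1.11 times the protease sum in *Nrg1GOF* and to 0.955, 1.18, 0.602 and 0.665 times in WT, so that *Nrg1GOF* library 4 fell below WT library 2. Within the protease sum, *Adamts1* made up 62.7% to 65.8% in *Nrg1GOF* and 53.6% to 62.8% in WT, and *Adamts9* made up 17.6% to 20.4% and 23.8% to 28.0%. The *Adamts9* share did not overlap between the groups and the *Adamts1* share did, at its edge. These sums, ratios and shares rest on merged exon length. By the longest transcript, mean *Adamts1* and *Adamts9* would be at 18.2 and 13.7 CPM per kb in WT and 23.7 and 12.2 in *Nrg1GOF*. The *Adamts1* share would then be lower and the *Adamts9* share higher in both groups. These sums and shares of selected genes are descriptions and were not tested.

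**Figure D3:**
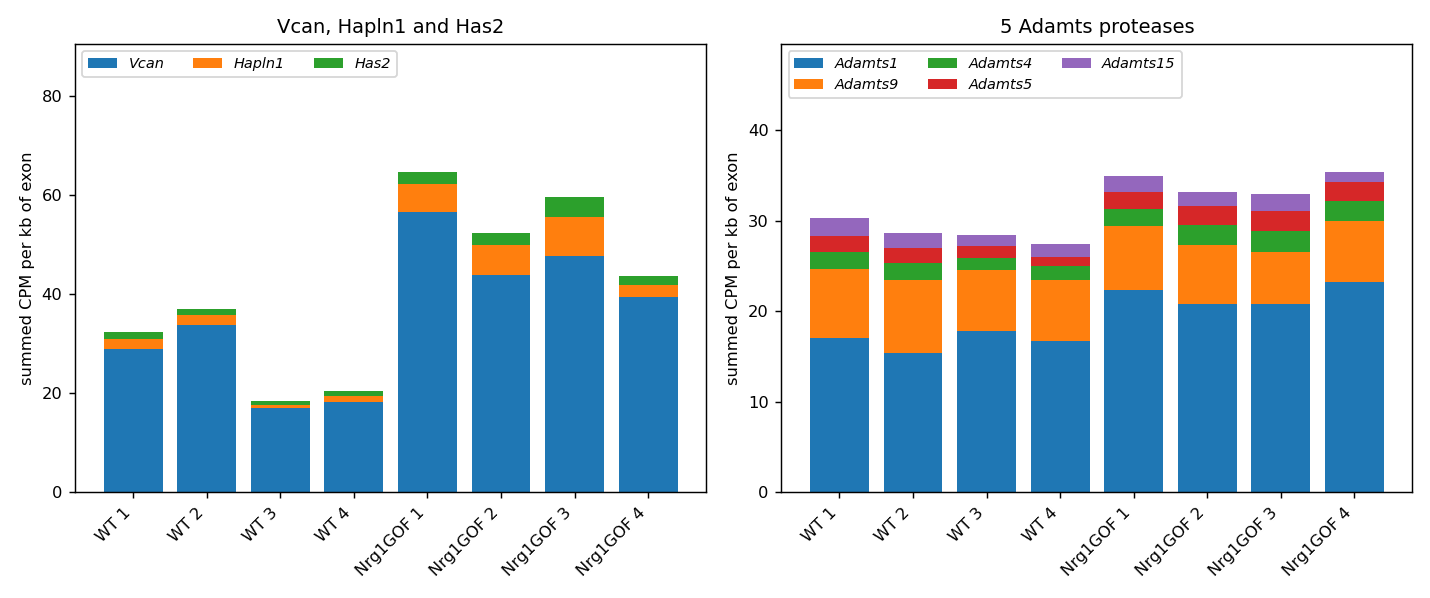
Stacked levels (CPM per kb of merged exon, linear axes from 0 that differ between the panels) of the matrix genes at left and of the 5 proteases at right in each of the 8 libraries. The matrix bars run from 18.4 to 37.03 in WT and from 43.6 to 64.6 in *Nrg1GOF*, whereas the protease bars run from 27.5 to 30.3 and from 33.0 to 35.4.

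The WT pairs entered these results unevenly. The mean of WT libraries 1 and 2 exceeded that of WT libraries 3 and 4 by 2.23-fold for *Hapln1*, 1.77-fold for *Vcan*, 1.61-fold for *Has2* and 1.54-fold for *Adamts5*, and the ratio was 0.950 for *Cd44*, 1.06 for *Hyal2* and 0.936 for *Adamts1*. Against WT libraries 1 and 2 alone, the log2 fold change was 1.48 for *Hapln1*, 0.58 for *Vcan* and 1.04 for *Has2* (adjusted p = 0.0192, 0.0211 and 0.0373). The values against WT libraries 3 and 4 were 2.64, 1.41 and 1.74 (adjusted p = 0.00313, 0.000288 and 0.00551). All 3 genes were thus called against either pair, with sizes that depended on the pair. *Adamts5* was called against WT libraries 3 and 4 (log2 fold change 0.89, adjusted p = 0.000866) and not against WT libraries 1 and 2 (0.25, adjusted p = 0.0987), and *Adamts4* likewise (0.59, adjusted p = 0.0175, and 0.19, adjusted p = 0.389). *Cd44* and *Adamts1* were at 0.46 and 0.42 against the first pair and 0.39 and 0.34 against the second.

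Cushion and valve mesenchyme and fibroblasts are known sources of versican, link protein and hyaluronan, and their markers moved with these genes. All 10 markers of these cells (*Postn*, *Col1a1*, *Col3a1*, *Dcn*, *Lum*, *Pdgfra*, *Tcf21*, *Sox9*, *Scx* and *Twist1*) were called higher in *Nrg1GOF*, with no overlap between the groups and a median log2 fold change of 0.97. Their summed level was 6450, 6673, 7717 and 5883 CPM in the *Nrg1GOF* libraries (1 to 4 in order) and 4432, 4443, 3269 and 3314 CPM in the WT libraries (same order), thus higher in the first WT pair than in the second. After the group means of log2 levels were removed, this sum correlated across the 8 libraries with *Has2* (Pearson r = 0.90), *Hapln1* (0.87), *Adamts15* (0.83), *Vcan* (0.83), *Adamts5* (0.82) and *Adamts4* (0.76), and inversely with *Cd44* (-0.81) and *Adamts1* (-0.71), with *Adamts9* at 0.31 and *Hyal2* at -0.21. *Has2* and *Hapln1* correlated at 0.91 and *Hapln1* and *Adamts15* at 0.94 in the same way. The points share libraries and scaling, the WT pairs make up part of the spread, and the coefficients only describe these 8 libraries.

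Per 1000 CPM of these mesenchyme markers, *Vcan* was at 127, 94.9, 89.5 and 96.7 CPM in *Nrg1GOF* and 94.4, 109.9, 75.7 and 79.7 CPM in WT, so that the groups overlapped. *Hapln1* was at 5.09, 5.42, 5.91 and 2.42 CPM in *Nrg1GOF* and 2.75, 2.59, 1.08 and 2.14 CPM in WT, with overlap through *Nrg1GOF* library 4. *Has2* was at 1.61, 1.51, 2.28 and 1.32 CPM in *Nrg1GOF* and 1.30, 1.24, 0.878 and 1.25 CPM in WT, without overlap but with a narrow gap. The part of mesenchyme content in the rise of these genes was not tested.

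**Figure D4:**
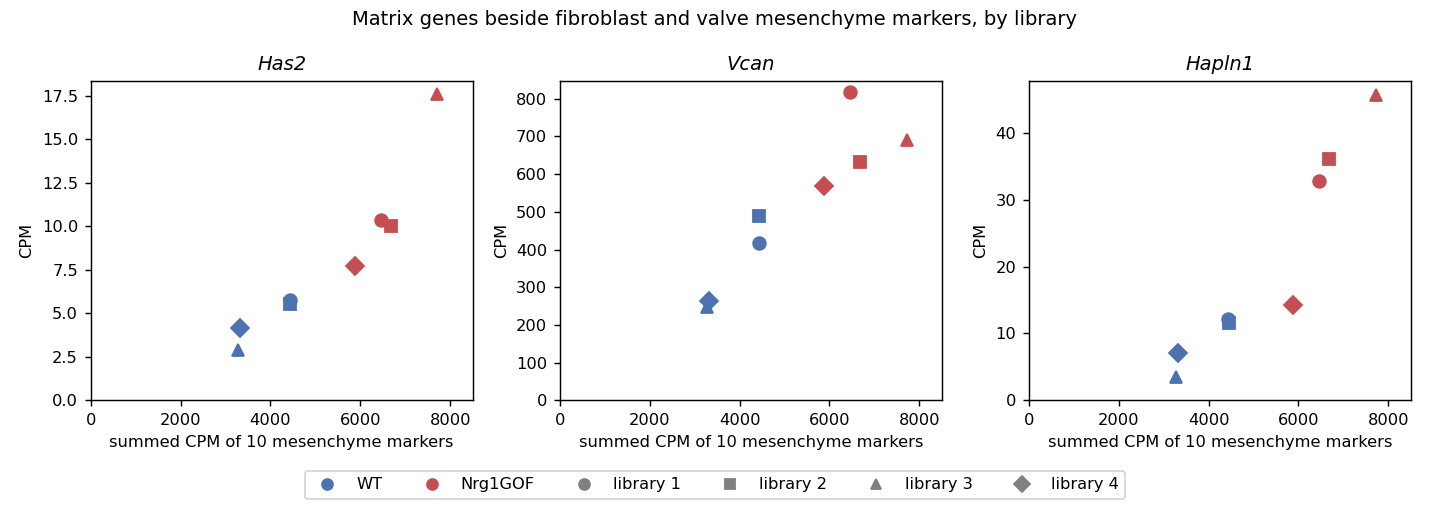
CPM of *Has2*, *Vcan* and *Hapln1* against the summed CPM of 10 fibroblast and valve mesenchyme markers in each library, all axes linear from 0, with colour for genotype and shape for replicate number. WT libraries 3 and 4 lie lowest on both axes, WT libraries 1 and 2 follow, and the 4 *Nrg1GOF* libraries lie at 5883 or more on the horizontal axis and above all WT libraries on the vertical axis.

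Markers of other cell types were measured in the same libraries. Of 10 endocardial and endothelial markers, 7 were called higher, with log2 fold changes from 0.28 for *Tie1* to 1.21 for *Nfatc1*, a transcription factor of the endocardium (adjusted p = 0.00612 and 4.22e-06), and *Cdh5*, *Pecam1* and *Kdr* were not called (-0.036, 0.079 and -0.04). All 8 macrophage markers were called higher (median 0.99), from a low summed level of 52.8 to 62.7 CPM in WT to 101 to 116 CPM in *Nrg1GOF*, and macrophages are among the cells that carry *Cd44*. Of 8 epicardial markers, 5 were higher and *Tbx18* was lower, of 7 mural markers 2 were higher and 2 lower, of 7 atrial markers 4 were higher, and of 8 ventricular myocardium markers 5 were lower (median -0.35). The 8 red blood cell markers gave 0 calls by edgeR, DESeq2 or limma-voom and 0 at an unadjusted p under 0.05, but their sum was 12197 CPM or more in WT libraries 1 and 2 against 5502 CPM or less in WT libraries 3 and 4. Against WT libraries 1 and 2 alone 6 of the 8 were called, and 3 were against the second WT pair. The direction turned with the pair. The sum in *Nrg1GOF*, 5432 to 8897 CPM, was below WT libraries 1 and 2. It was above WT libraries 3 and 4, except that *Nrg1GOF* library 3 was slightly below WT library 3. The number of ventricular markers called fell to 3 without *Nrg1GOF* library 1 or 2, and the number of mural markers to 2 without *Nrg1GOF* library 1 or 2 or WT library 3 or 4. The part of these cells in the results was not tested. The marker genes named were picked after their values were seen.

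Other genes of hyaluronan metabolism were read from lists of related genes. Of 7 tested genes for hyaluronan synthesis and its sugar supply, 5 were called higher (median log2 fold change 0.52, against -0.012 over all tested genes). *Has3*, a further hyaluronan synthase, went from 2.07 ± 0.441 CPM to 4.86 ± 0.604 CPM in *Nrg1GOF* (SD, n = 4 each), or 1.22 on the log2 scale (SE 0.19, adjusted p = 0.00129), but remained lower per kilobase than *Has2*. *Ugdh*, which makes the UDP-glucuronate that both synthases use, rose by 0.62 on the log2 scale (SE 0.087), and *Gfpt2*, which feeds the hexosamine pathway, rose by 0.83 (SE 0.10). *Gfpt1* and *Pgm3* were the other called genes. *Has1* held too few counts to be tested, at 0.333 CPM or less in each library.

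Of 6 tested genes for hyaluronan breakdown besides *Hyal2*, 5 were called higher (median 0.55). *Cemip2* (also called *Tmem2*), a cell surface protein with a role in hyaluronan turnover, went from 150.3 ± 13.2 CPM to 225 ± 22.4 CPM in *Nrg1GOF* (SD, n = 4 each), or 0.58 on the log2 scale (SE 0.087, adjusted p = 0.000978). Its relative *Cemip* was higher by 0.79 on the log2 scale (SE 0.22, adjusted p = 0.0259) and lost its call in 5 of 8 leave-one-out fits (without *Nrg1GOF* library 1, 2 or 3 or WT library 3 or 4, adjusted p = 0.0518 to 0.0730). With the first WT pair as the only controls *Cemip* was uncalled at 0.41 (adjusted p = 0.0818), and with the second it was at 1.30. *Hexa* and *Gusb*, which encode lysosomal enzymes that act on the fragments and on other glycans too, were also called higher, with *Hexa* at 0.68 (SE 0.061).

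Among 11 tested hyaluronan-binding genes, 4 were called higher and 1 lower (median 0.097). The lower gene was *Hmmr* (log2 fold change -0.56, SE 0.05, adjusted p = 6.79e-05), which is also a mitotic spindle gene. *Stab1*, a scavenger receptor, rose by 0.33 (SE 0.051), and *Itih5* by 0.74 (SE 0.24), the latter with an adjusted p of 0.0457 and overlapping groups. *Itih5* lost its call without *Nrg1GOF* library 1, 2 or 3 or WT library 3 or 4 (adjusted p = 0.0738 to 0.115). With the first WT pair as the only controls it was uncalled at 0.34 (adjusted p = 0.123), and with the second it was at 1.29. The remaining called genes were the link protein *Hapln3* and *Tnfaip6*, with group means of 0.881 and 0.456 CPM in WT and 1.70 and 1.50 CPM in *Nrg1GOF*. The number called in this list fell from 5 to 3 without *Nrg1GOF* library 1 or 2 or WT library 3.

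All 7 tested versican partners were called higher (median 0.79), led by *Tnc* (tenascin C), which went from 54.5 ± 15.3 CPM to 227 ± 12.5 CPM in *Nrg1GOF* (SD, n = 4 each), or 2.06 on the log2 scale (SE 0.17, adjusted p = 4.56e-05), followed by *Fbln1* (0.89, SE 0.084) and *Fbn2* (0.86, SE 0.21). Of 21 tested genes that build or modify chondroitin sulphate and dermatan sulphate chains, 12 were called higher (median 0.40), with *Chst12*, a chondroitin 4-sulphotransferase, at 1.08 (SE 0.13), *Xylt1*, which adds the first sugar of the chain, at 0.74 (SE 0.19) and *Dsel* at 0.70 (SE 0.10). The sizes for *Xylt1* and *Fbn2* depended on the WT pair, as did those of *Cemip* and *Itih5* above. Against WT libraries 1 and 2 alone, *Xylt1* was at 0.42 and lost its call (adjusted p = 0.0502) and *Fbn2* was at 0.50 and still called, and against WT libraries 3 and 4 alone they were at 1.14 and 1.35 (adjusted p = 0.000687 and 0.000234). The share of all tested genes called in either direction was 28.7%. Fibroblasts and valve mesenchyme express many of these genes, and the marker values given above apply here as well.

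Among the 11 other Adamts proteases tested, 6 were called higher and 2 lower (median 0.48). *Adamts20*, a versican-cleaving relative of *Adamts9*, went from 1.45 ± 0.574 CPM to 4.46 ± 1.52 CPM in *Nrg1GOF* (SD, n = 4 each), or 1.66 on the log2 scale (SE 0.32, adjusted p = 0.00371), and *Adamts2*, which trims procollagen, went from 22.4 ± 7.31 to 48.5 ± 8.90 CPM, a log2 fold change of 1.13 (SE 0.22). *Adamts6* was at 68.3 ± 15.3 CPM in WT and fell to 35.3 ± 6.44 CPM (SD, n = 4 each), or -0.94 on the log2 scale (SE 0.17, adjusted p = 0.00256), and *Adamts3*, another procollagen-trimming enzyme, was the other lower gene. The sizes depended on the WT pair used as the only controls, with *Adamts2* at 0.78 for the first pair and 1.603 for the second, and *Adamts6* at -0.63 and -1.19. The 5 versican- and aggrecan-cleaving proteases described first made up 39.9% to 51.2% of the summed level of all 19 Adamts genes in *Nrg1GOF* and 44.6% to 46.8% in WT, per kilobase of merged exon.

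The Adamts-like proteins, which lack a protease domain and include papilin, had 3 of 6 tested genes called lower and 1 higher (median log2 fold change -0.26). *Papln* (papilin) went from 6.68 ± 0.469 CPM to 1.93 ± 0.446 CPM in *Nrg1GOF* (SD, n = 4 each), or -1.78 (SE 0.18, adjusted p = 0.000109), *Adamtsl3* went from 9.76 ± 1.72 to 3.22 ± 0.749 CPM (-1.56, SE 0.19), and *Adamtsl1* was the other lower gene. *Adamtsl2* rose by 1.20 (SE 0.19).

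Of 11 tested inhibitors and activators, 8 were called higher and 1, *Mmp15*, lower (median 0.58). *Mmp2* (gelatinase A) rose by 1.06 on the log2 scale (SE 0.10), *Furin*, a convertase that removes the propeptide of many Adamts proteases, rose by 0.86 (SE 0.07), and *Timp1*, a broad metalloprotease inhibitor, by 0.82 (SE 0.12). *Timp3*, which encodes an inhibitor of Adamts4 and Adamts5, named after its values were seen, rose from 222 ± 4.45 CPM to 358 ± 16.1 CPM in *Nrg1GOF* (SD, n = 4 each), or 0.69 on the log2 scale (SE 0.05, adjusted p = 2.07e-05).

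**Figure D5:**
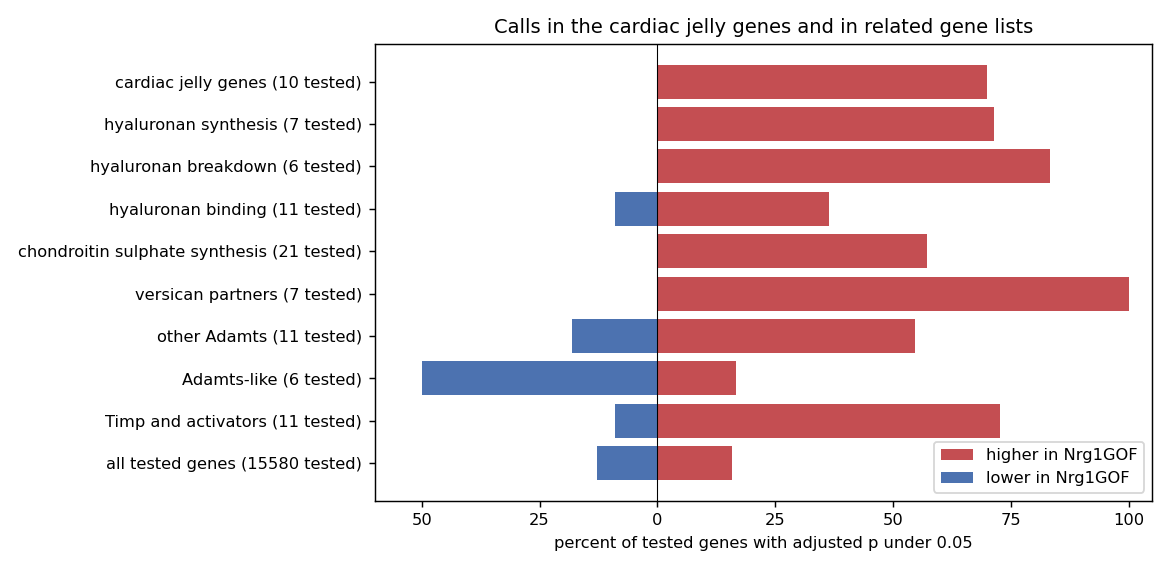
Percent of the tested genes of each list with an adjusted p under 0.05, higher in *Nrg1GOF* to the right of 0 and lower to the left, with the number tested in brackets and all 15580 tested genes in the last row. The versican partners have all 7 genes to the right, the Adamts-like genes have most calls to the left, and all tested genes have 15.9% to the right and 12.8% to the left.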

How the data were processed

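Poly(A) RNA of ventricles was sequenced as directional libraries with single reads of 60 bases. The deposited table holds expected counts that the authors estimated with RSEM on GRCm38 (annotation release 91), not scaled for depth or length, and the submitters' processing notes name cutadapt and RSEM version 1.3.1. The aligner and strand setting are not given in the sources used here. Symbols, positions and exon lengths came from GENCODE M21 (GRCm38), a later release than that used for counting.

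Expected counts were rounded, and genes were kept with filterByExpr of edgeR 4.0.16 (R 4.3.3), which left 15580. *Nrg1GOF* was compared with WT by the edgeR quasi-likelihood F-test (TMM scaling, genotype as sole term, two-sided), after the study's use of an edgeR generalised linear model, with Benjamini-Hochberg adjustment over all tested genes. Genes were called at an adjusted p under 0.05. CPM uses the TMM-scaled library size, SEs were derived from the log2 fold change and F, and 95% intervals use the quasi-likelihood degrees of freedom. The test was checked on simulated counts.

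Groups and replicate numbers came from sample titles. Nothing states that libraries came from separate litters, so p-values measure only the spread between these libraries. Named genes were the 10 genes, *Nrg1*, and from each related list up to 3 called genes with the largest absolute log2 fold change at an average log2 CPM of at least 1. Other list genes were named after their values were seen, and some items are not reported here. The genes and lists were chosen with earlier results of these data known.

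Alternatives were the edgeR likelihood ratio test, DESeq2 1.42.0, limma-voom (limma 3.58.1), a replicate block, 3 scalings, 2 filters, unrounded counts, a threshold of 0.01, each library left out, each WT pair alone, WT pairs summed and, chosen after seeing the data, thinning to the smallest library. A floor of 3 counts stood for 0.115 to 0.375 CPM and covers counting error only, since reads carried no molecular identifiers.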

Additional observations from a re-analysis of the deposited data

Results flagged for a closer look

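Each group of 4 libraries was searched with Dixon's ratio at the 95% level for 1 library far from the rest. That happened in 3 of 72 groups, and 3.6 would be reached by chance alone.

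The total of *Nrg1GOF* library 4 was 8038641 counts, against 20578081 to 22547833 in the other *Nrg1GOF* libraries. *Has2* held 62 counts and *Hapln1* 114 in this library. Without it, the log2 fold changes were 1.49 for *Has2* and 2.17 for *Hapln1*.

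*Hyal2* was at 59.7 CPM in WT library 1 and at 53.4 to 54.2 CPM in the other WT libraries. Without WT library 1, its log2 fold change was 0.28 (edgeR quasi-likelihood adjusted p = 0.0429).

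*Adamts6* was at 44.9 CPM in *Nrg1GOF* library 3 and at 31.3 to 32.7 CPM in the other *Nrg1GOF* libraries, all below the WT libraries.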

How the results depend on the processing

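*Has2*, *Vcan*, *Hapln1*, *Cd44* and *Adamts1* kept their direction and call under all 23 alternatives, and *Adamts9* stayed uncalled. Over 1288 recomputed results, 1202 kept direction and side of the threshold (counts within 1.5 times), 44 lost and 4 gained a call, 31 counts moved and 7 changed sign, all 7 being *Adamts15*, never called. The causes were not tested. A floor of 3 counts amounted to 0.375 CPM in the smallest library and 0.115 CPM in the largest.

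*Hyal2* lost its call with limma-voom (log2 fold change 0.23), RLE scaling (0.25), no filter on low counts (0.24), an adjusted p under 0.01 (0.25), WT libraries 1 and 2 alone (0.20), WT libraries 3 and 4 alone (0.29) and WT pairs summed (0.25), and lay between 0.20 and 0.31 with 1 library left out. *Adamts5* lost its call at an adjusted p under 0.01 (0.54), against WT libraries 1 and 2 alone (0.25) and with WT pairs summed (0.54), and lay between 0.40 and 0.68 with 1 library left out. *Adamts4* gained a call with library totals as scaling (0.42), against WT libraries 3 and 4 alone (0.59) and after thinning (0.45), and lay between 0.28 and 0.46 with 1 library left out. *Adamts15* turned positive with limma-voom (0.048), library totals (0.041), a filter of 1 CPM (0.0089) and WT libraries 3 and 4 alone (0.22), and lay between -0.0996 and 0.12 with 1 library left out.

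The 4467 genes called (2474 higher, 1993 lower) became 2535 (1503 and 1032) at an adjusted p under 0.01 and 2464 (1548 and 916) with WT pairs summed, and 1308 were lower against WT libraries 1 and 2 alone. With library totals, 65.4% of calls were higher, against 55.4%, and the median log2 fold change of all genes was 0.033. Hyaluronan-binding genes called went from 5 to 3 at an adjusted p under 0.01, against WT libraries 1 and 2 alone, with WT pairs summed and after thinning, and ranged from 3 to 5 with 1 library left out. The other Adamts genes called went from 8 to 5 at an adjusted p under 0.01 and against WT libraries 1 and 2 alone.

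The replicate numbers were not taken to pair libraries. Same-numbered libraries correlated in their deviations from the group means at 0.13, 0.049, 0.20 and 0.067 for numbers 1 to 4, and not every library correlated best with its own number. *Nrg1GOF* libraries 1 and 2 correlated at 0.049 to 0.19 with WT libraries 1 and 2 and at -0.20 to -0.073 with WT libraries 3 and 4. *Nrg1GOF* library 3 did the reverse (-0.26 and -0.080, then 0.20 and 0.16). *Nrg1GOF* library 4 was mixed (0.044, -0.11, 0.0041 and 0.067 with WT libraries 1 to 4). Whether both genotypes share the grouping of the WT pairs was not tested. A replicate block gave 4524 calls, 4093 of them also called without it, and 6 of the 10 genes, *Hyal2* being uncalled at 0.24 (edgeR quasi-likelihood adjusted p = 0.0528).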
